A study of Mus musculus with 12 samples.

Results

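The wild-type chromatin landscape of mature medullary thymic epithelial cells (mTEChi) was described from 6 ATAC-seq libraries, those labelled Aire +/+, among the 12 libraries of the series. All 12 came from thymi of C57BL/6 mice aged 4 to 7 weeks, which were dissociated with enzymes before mTEChi were sorted. The 6 wild types formed 3 pairs, each named here after the mutant genotype whose title form it shares: the knockout set (2 libraries beside Aire -/-), the C313Y set (2 beside Aire +/C313Y) and the C442G set (2 beside Aire +/C442G). This matching by title is an assumption, since the genotype label of all 6 is the same. The other 6 libraries carried Aire mutations and were used only to ask where wild-type regions were also called. Each library was given as 1 list of accessible stretches (peaks) with no read counts, so its sequencing depth was unknown. A missing peak means only that none was called. The labels do not say which libraries came from separate mice, so the spread within a pair may be technical.

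mTEChi are the mature epithelial cells of the thymic medulla, with high surface MHC class II, and they show developing T cells proteins that elsewhere are made in single tissues. AIRE, the autoimmune regulator, switches on many of the genes for these proteins, and non-canonical NF-kB signalling through RANK and CD40 drives the cells to mature. ATAC-seq marks the places where a transposase can reach DNA, which are mostly gene starts of active or poised genes and the enhancers between them.

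Peaks on chromosomes 1 to 19 were merged wherever they overlapped, and the number of wild-type libraries with a peak was counted for each merged region. A gene start counted as open in a library when a peak lay within 1 kb of a start site in the RefSeq promoter table. That table held a start for 16457 of the 20665 autosomal protein-coding genes. For the others either annotated end was used.

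The promoters of 4 genes show the range from open in every wild type to open in none. Each is the stretch of 250 bases before the RefSeq start (GRCm38.p6, the coordinates of mm10), 5′ to 3′ on the gene's strand. Capitals mark the words searched for on both strands: GGGCGG of Sp/KLF factors, CCGGAAG of ETS factors, CCAAT of NFY, GCGCATGC of NRF1, TGACGTCA (the CRE word), TGANTCA of AP-1, GGAANTCCC of NF-kB, CACGTG (the E-box word), TATAAA (the word of the TATA box), GAAANNGAA of IRF factors, TGTGGT of RUNX, AACCNGTT of GRHL and AAGATGGC of YY1.
Ppp2r1a (chr17:20945204-20945453, plus strand, 6 of 6 libraries): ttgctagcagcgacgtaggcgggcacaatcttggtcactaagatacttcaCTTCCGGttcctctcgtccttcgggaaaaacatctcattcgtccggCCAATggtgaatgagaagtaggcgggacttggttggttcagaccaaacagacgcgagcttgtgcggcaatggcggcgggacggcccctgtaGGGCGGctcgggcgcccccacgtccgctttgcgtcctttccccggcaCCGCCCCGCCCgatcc
Aire (chr10:78043611-78043860, minus strand, 6 of 6): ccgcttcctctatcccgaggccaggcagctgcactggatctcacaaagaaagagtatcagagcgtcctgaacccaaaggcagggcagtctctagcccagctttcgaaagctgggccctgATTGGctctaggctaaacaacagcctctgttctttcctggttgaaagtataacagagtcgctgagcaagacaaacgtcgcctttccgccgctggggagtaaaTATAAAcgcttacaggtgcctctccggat
H2-Aa (chr17:34287824-34288073, minus strand, 6 of 6): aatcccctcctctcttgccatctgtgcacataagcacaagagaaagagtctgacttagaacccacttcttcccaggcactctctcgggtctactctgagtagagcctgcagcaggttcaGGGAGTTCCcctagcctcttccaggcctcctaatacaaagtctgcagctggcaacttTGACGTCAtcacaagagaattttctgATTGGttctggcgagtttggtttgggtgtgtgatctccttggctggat
Zp3 (chr5:135979855-135980104, plus strand, 0 of 6): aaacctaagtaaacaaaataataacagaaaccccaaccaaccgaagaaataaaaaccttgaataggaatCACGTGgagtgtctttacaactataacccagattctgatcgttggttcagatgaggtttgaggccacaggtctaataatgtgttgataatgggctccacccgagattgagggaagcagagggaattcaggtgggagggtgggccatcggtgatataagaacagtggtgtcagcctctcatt
Ppp2r1a encodes the scaffold subunit of the phosphatase PP2A and stands here for the always-open class: its stretch held 25 CpG dinucleotides, 3 Sp/KLF words, 1 ETS word and 1 NFY word. The Aire stretch held 11 CpG, a TATA word whose first base lies 29 bases before the start, and the NFY word reversed. The stretch of H2-Aa, an MHC class II chain, held 3 CpG, the CRE word 74 bases and the reversed NFY word 48 bases before the start, and the NF-kB word 131 bases before it. Class II promoters are known for an X box that resembles the CRE word and a Y box that is a reversed CCAAT. Zp3, an egg coat protein that mTEChi make under AIRE, had 5 CpG and an E-box word. A match is a description of the letters and shows no binding.

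The core of the landscape was small in number and rich in gene starts. Of 149987 regions, 18743 (12.5%) had a peak in all 6 wild types and 69107 (46.1%) in only 1. The regions called in all 6 covered 10.6 Mb of the 37.4 Mb in any region, with a median width of 515 bp against 163 bp over all regions. They lay at a gene start in 50.9% of cases, inside a gene in 23.7% and between genes in 25.4%, where all regions gave 12.1%, 44.3% and 43.6%. The share at gene starts went from 4.55% of regions in 1 library over 10.2% of regions in 4 to 14.4% of regions in 5, and the step from there to regions in all 6 was the largest.

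**Figure D1:**
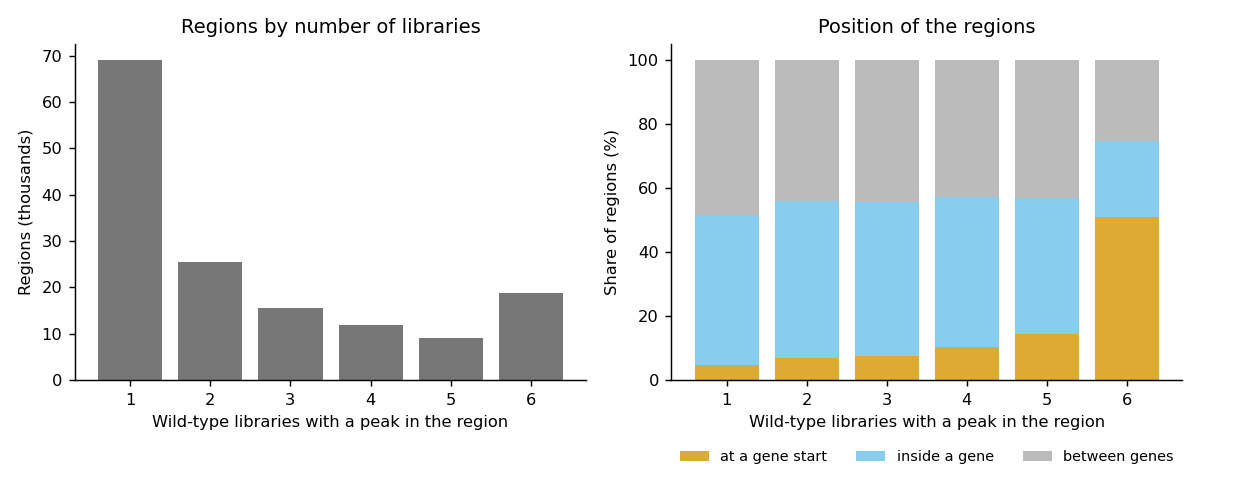
Left, number of merged regions (axis in units of 1000) by the number of wild-type libraries with a peak. Right, the share (%) of those regions at a gene start, inside a gene and between genes. Regions in 1 library number 69107 and those in all 6 number 18743, and 50.9% of the latter lie at a gene start.

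Regions in all 6 had their centre near a gene start more often than regions in fewer libraries. On the chromosomes with listed starts, 42.6% of the regions in all 6 (7749 of 18170) had their centre within 1 kb of a listed start, and 32.8% within 200 bp of it. For regions in 2 to 5 libraries these shares were 6.34% and 3.35%, and for regions in 1 library 3.23% and 1.01%. Of the all-6 regions that overlapped the 1 kb around a listed start, 10.3% (811 of 7850) served listed starts on both strands, as between divergent gene pairs, against 3.13% of regions in 1 to 5 libraries. Away from gene starts there were 9202 regions in all 6, and 4759 of these lay between genes at a median distance of 17.2 kb from the nearest gene. The table places 26.4% of these 4759 inside a non-coding annotation such as a lncRNA or a pseudogene.

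The core was also where the strongest peaks were. In knockout set replicate 2, 21.0% of the weakest 10% of peaks by −log10 p lay in a region called in all 6, and 98.8% of the strongest 10%. In C442G set replicate 1 the same shares were 0.414% and 83.8%. Ranked by width, which is all the C313Y lists allow, the widest 10% lay in the core in 70.3% and 80.5% of cases in the C313Y set. In each of the 6 lists the share was higher in the top 10% than in the bottom 10%. Peaks of the core at gene starts had a median fold over background, as the authors' caller gave it, of 5.57 and 5.89 in the knockout set and 6.97 and 7.63 in the C442G set. Peaks outside the core had 3.88 and 3.96, and 3.92 and 4.11.

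**Figure D2:**
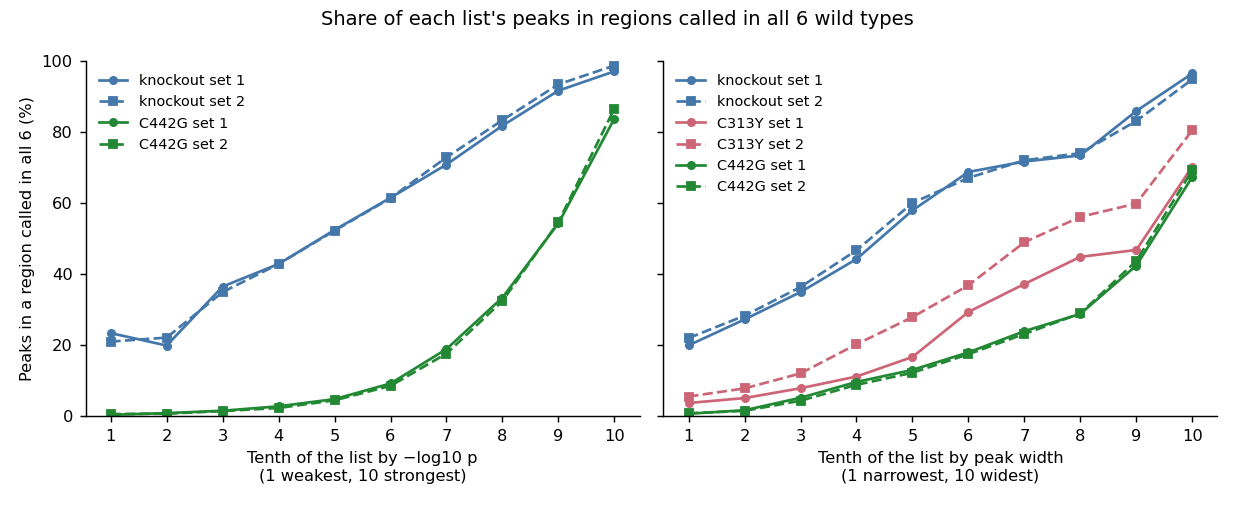
Share (%) of each library's peaks that lie in a region called in all 6 wild types, in steps of 10% of the list. Left, the 4 lists with scores ranked by −log10 p; right, all 6 lists ranked by width. The strongest or widest 10% lies above the weakest or narrowest in each list, and the top 10% by −log10 p reaches 97.1% and 98.8% in the knockout set and 83.8% and 86.6% in the C442G set.

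Regions of the wild-type core were called in the mutants as well, in libraries that played no part in choosing them. All 6 mutant libraries had a peak in 18235 of the 18743 regions (97.3%), and no region was missed by all 6. Single mutant libraries called from 98.2% (an Aire +/C313Y library) to nearly all of them (18741, an Aire +/C442G library). The Aire -/- libraries called 99.4% and 99.7%. How many of all merged regions the mutants called was not counted. Core regions were also wider and held the strongest peaks. These shares therefore do not set the core apart from other wide or strong regions.

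At the level of genes, 10202 of 20665 protein-coding genes (49.4%) were open in all 6 wild types, 6022 (29.1%) in none and the other 4441 in 1 to 5. Promoters of the always-open genes were rich in CpG: the median was 22 CpG per 300 bases around the start, against 14 over all promoters in the table and 2 for genes open in none. An Sp/KLF word was present in 69.5% of the always-open promoters, 47.3% of all and 10.9% of those open in none. ETS words were present in 20.7%, 12.3% and 2.01%, and NRF1 words in 6.26%, 3.66% and 0.637%. These words hold CG pairs, and so does the CpG count. The TATA word went the other way, with 6.24% of always-open promoters, 13.5% of all and 28.2% of those open in none, and so did the AP-1 word with 4.13%, 7.12% and 11.5%. NFY words were present in 40.4%, 39.1% and 40.8%, and in 33.3% of promoters open in 1 to 5 libraries. The NF-kB word was present in 2.61%, 1.9% and 0.904%. By name alone, a CTCF motif of 11 letters was matched in 2.74%, 2.19% and 1.09%.

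Aire itself (chromosome 10, 78030022 to 78043610, minus strand) had a start peak in all 6 wild types. The peak was 187 and 230 bp wide in the knockout set, 273 and 316 bp in the C313Y set, and 257 and 300 bp in the C442G set. Its −log10 q was 2.69 and 2.97 in the knockout set, and 23.3 and 17.7 in the C442G set, so at a threshold of 3 the scored and position-only lists together call it in 4 of 6. Within its own list it stood at percentiles 49.2 and 50.2 of −log10 p in the knockout set and 96.6 and 92.2 in the C442G set. These lists differ in length, so the percentiles describe each list and are not a difference between the pairs.

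Among the genes at the top of every list by the lowest of their 6 percentiles, Ifrd1, a transcriptional co-regulator, led with a peak at percentile 99.1 or higher in each library, from 432 bp in knockout set replicate 2 to 1274 bp in C442G set replicate 1. A peak of 728 to 936 bp between Pdcd10 and Serpini1, a divergent pair, followed with a lowest percentile of 98.9. Ppm1b, a protein phosphatase, and Ppp2r1a had 98.7 and 98.2. Others among the first 20 were Pcna, the sliding clamp of DNA replication (223 bp in knockout set replicate 1 and 775 to 859 bp elsewhere), Ncl, the nucleolar protein nucleolin, Snrpa, a protein of the U1 splicing particle, Khsrp, an RNA-binding protein, Cnot3 of the CCR4-NOT deadenylase, Cenpc1, a centromere protein, and Rpl22l1, a ribosomal protein paralogue. Shared peaks gave several neighbours the same rank: Hdgfl2 with Ubxn6, Nudt6 with Spata5, BC024978 with Snrpa, and R3hdm1 with Zranb3.

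Some genes held many core regions along their length. Gse1, which encodes a coiled-coil protein, had 12 regions called in all 6 within the gene and 5 kb to each side, and Arhgap26, which encodes a RhoGAP, had 10. Maml3, a Notch co-activator of the mastermind family, and Mical3 had 9 each. Mbp, Pde4d, Prkag2, Tex14 and Tspan18 had 8 each, and Ank3, Camta1, Celsr1, Dst and Etl4 had 7. The 15 genes with the most are long, from 111 kb (Mbp) to 1302 kb (Pde4d), and the count was not divided by length. Over all genes 126 had 5 or more such regions, and 12705 had at least 1.

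Lists of genes by role were read against the 49.4% of all genes open in all 6. Of 18 housekeeping genes found, 15 (83.3%) were open in all 6. A high share therefore does not by itself set a list apart from widely used genes. All 16 NF-kB pathway genes on the list were open in all 6, among them Relb, Nfkb2, Map3k14 and Traf3 of the non-canonical arm and Nfkbia and Tnfaip3, which restrain the pathway. The Relb peak was 647 to 809 bp wide and at percentile 93.2 or higher in every library. All 20 genes for known AIRE partners were open in all 6 too, such as the DNA repair kinase Prkdc, its partners Xrcc5 and Xrcc6, and the topoisomerase Top1. Of 14 epithelial genes 13 were open in all 6, including Epcam, the E-cadherin gene Cdh1, Krt8 and Krt14. At −log10 q of at least 3 in the scored lists 8 of the 14 were, 12 of the NF-kB genes and 17 of the AIRE partner genes. Without this threshold the epithelial gene not open in all 6 was Krt5, a basal keratin. It had a start peak in both libraries of the C313Y and C442G sets and neither of the knockout set. Its percentiles were 18.3 and 65.6, and 59.6 and 61.9.

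Medullary identity genes were open in all 6 in 7 of 12 cases (58.3%), near the 49.4% of all genes. Each of the 12 was open in at least 1 library, where 29.1% of all genes were open in none. Cd80, the co-stimulatory ligand, Cd40, the RANK gene Tnfrsf11a, the claudin Cldn3, Prdm1, Spib and Aire were open throughout. The Cd80 peak was 144 to 264 bp wide, at −log10 q of 5.04 and 4.17 in the knockout set and about 15 in both C442G libraries. Fezf2, the transcription factor that drives a second group of tissue antigens, lacked a start peak in knockout set replicate 2, and Cldn4 in 1 library of that set. Cd86 had none in either knockout set library and one in each of the other 4. Trp63, the p63 gene of epithelial progenitors, had one in 5 libraries. Trp63, Cd86 and Cd40 have no listed start, so their open end may be the end of the gene.

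MHC class II genes were open in all 6 in 7 of 10 cases. The H2-Aa peak was 236 and 225 bp wide in the knockout set, 322 and 223 bp in the C313Y set and 293 and 328 bp in the C442G set, with −log10 q of 9.61 and 6.3, and 24.6 and 21.8, in the scored pairs. H2-Ab1, H2-Eb1, the invariant chain gene Cd74, H2-DMa, H2-DMb1 and H2-Ob were open throughout. H2-Oa lacked a peak in both knockout set libraries and Ctss, the invariant chain protease, in 1 of them. Ciita, the class II transactivator, had no peak at either annotated end in any library and no listed start, so its several known promoters inside the gene were not read here.

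Thymic epithelial transcription factors gave 5 of 10 open in all 6, near the 49.4% of all genes, among them Pax9, Six4 and Meis1. Foxn1, the master factor of thymic epithelium, had a start peak in the 4 libraries of the C313Y and C442G sets and in neither of the knockout set. Its percentiles were 80.9 and 86.6 by width in the C313Y set, and 55.2 and 31.7 in the C442G set. Pax1 and Tbx1 gave the same pattern, and Hoxa3 had a peak in only 1 library. Cortical epithelial genes were open in all 6 in 5 of 10 cases (Ly75, Cd83, Ctsl, Dll4 and Ccl25), again near 49.4%. Psmb11, the thymoproteasome subunit specific to cortex, had a peak in 3 libraries at percentile 28 or lower. Prss16 and Tbata had none.

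Among 9 medullary chemokines only Ccl25 and Cxcl10 were open in all 6. The Ccl25 peak stood at percentile 90.5 or higher in every list, and the Cxcl10 peak at 74.4 or higher. Ccl17, Ccl21a and Xcl1 had no start peak in any library. With a window of 2 kb Ccl17 had a peak in 2 libraries, and at either annotated end in 4. Ccl19, a ligand of the receptor that guides thymocytes into the medulla, had a start peak in both C313Y libraries and in none of the other 4, a pattern taken up with the repeated promoters.

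Genes that mTEChi express under AIRE were rarely open at their starts in all 6 libraries. Of 16 AIRE-induced antigen genes found, 1 was open in all 6 (Pcp4, a calmodulin-binding protein of Purkinje cells, at percentiles from 49.1 to 86.1) and 9 in none, among them Ins2 (insulin), Zp3, Mup4, Chrna1 and Fabp2. The other 6 AIRE-induced genes were open in 1 to 5 libraries, and over all genes 29.1% were open in none. At either annotated end Chrna1 had a peak in 3 libraries. Of 7 FEZF2-dependent antigen genes, a separate group, 1 was open in all 6 (Nol4, by an annotated end), 5 in 1 to 5 and 1 in none. Keratin-associated proteins (1 of 56), defensins (1 of 71), collagens (1 of 42), P450 enzymes (12 of 99) and the Hox clusters (3 of 39) were below the 49.4% of all genes. No major urinary protein gene of 22 and no vomeronasal receptor gene of 352 was open in all 6, and of 1104 olfactory receptor genes 3 were. In contrast, ribosomal protein genes (70 of 76), proteasome subunits (35 of 39), complex I subunits (34 of 38), core histones (44 of 57) and Zfp zinc finger genes (254 of 360) were above it. The chromatin factor genes with no start peak in any library, Rad21 and Nipbl, have no listed start, so their annotated ends were read. With a window of 2 kb Rad21 had a peak in 6 libraries and Nipbl in 3. Each of the 12 chromatin factor genes found held a core region within the gene or 5 kb of it.

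**Figure D3:**
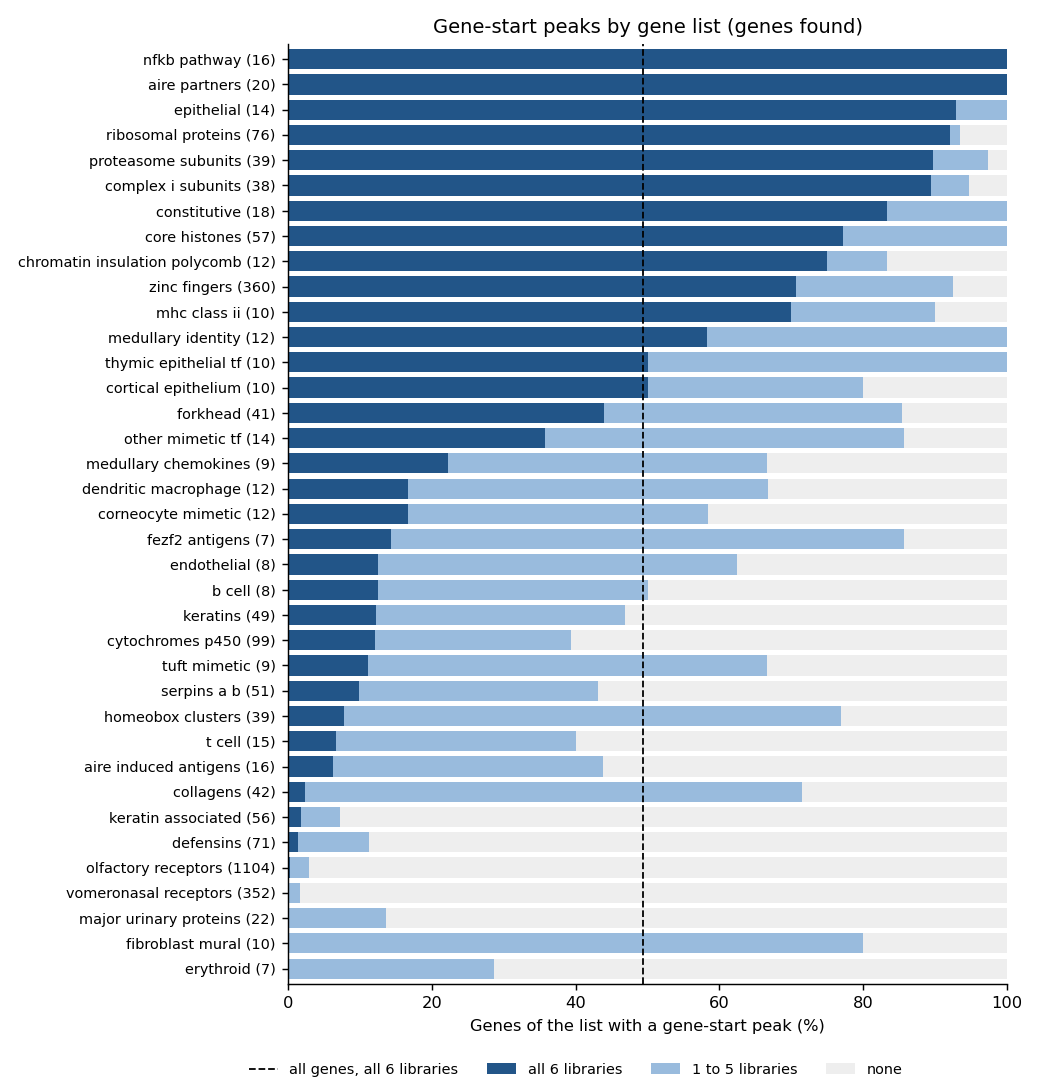
Share (%) of each gene list whose starts had a peak in all 6 wild types (dark), in 1 to 5 (light) and in none (grey), with the number of genes found in parentheses; the dashed line is 49.4%, the share of all genes open in all 6. NF-kB pathway and AIRE partner genes reach 100%, epithelial genes 92.9%, and receptor, antigen and other-lineage lists lie at the bottom.

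The sorted identity was read from markers of other cells that a thymus sort could hold. Of 15 T cell markers 1 was open in all 6 (Tcf7), while Cd3e, Cd3d, Cd3g, Cd8a, Lck, Zap70, Rag1 and Rag2 had no start peak in any library. With a window of 2 kb Lck had one in all 6, and at either annotated end Cd3d had one in 2. Single libraries had from 2 to 4 of the 15. B cell markers had 1 of 8 open in all 6 (Ebf1, with Cd79a and Ms4a1 at none), dendritic cell and macrophage markers 2 of 12 (Flt3 and Spi1), endothelial markers 1 of 8 (Erg), and fibroblast markers 0 of 10 and erythroid markers 0 of 7. With a window of 500 bp Ebf1 and Erg had a peak in 0 libraries. Of the fibroblast markers 8 were open in 1 to 5 libraries, with 3 and 0 in the knockout set, 5 and 4 in the C313Y set and 6 and 7 in the C442G set. Of the erythroid markers 2 were open in 1 to 5 libraries. The same count was 5 for T cell markers and 3 for B cell markers. It was 6 for dendritic cell and macrophage markers and 4 for endothelial markers. The part of such cells in these lists was not tested. Mimetic cells, the medullary epithelial cells that take on features of other tissues, gave 1 of 9 for tuft cells, 2 of 12 for corneocytes and 5 of 14 for other lineage factors (among them Myod1, Foxj1, Insm1 and Foxa3, of which only Foxa3 was open at a listed start). The last count was 2 at −log10 q of at least 3 and 3 with the widest peaks or a window of 500 bp. In bulk lists a gene open in few cells and a gene barely open in all cannot be told apart.

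Micro-RNA genes were read in the same way, with a peak within 1 kb of the hairpin. This choice of microRNAs was made after the lists had been seen. Of 919 hairpins on the autosomes, 87 (9.47%) had a peak in all 6 and 652 in none. The epithelial miR-200 family, which restrains the mesenchymal factors ZEB1 and ZEB2, lies in 2 clusters. Its mature sequences are printed with the seed, bases 2 to 8, in capitals, because the family has more than 1 seed (sequences from RefSeq, GRCm38.p6).
miR-200c-3p: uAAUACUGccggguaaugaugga
miR-200b-3p: uAAUACUGccugguaaugauga
miR-429-3p: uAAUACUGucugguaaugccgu
miR-141-3p: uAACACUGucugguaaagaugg
miR-200a-3p: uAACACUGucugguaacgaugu
Mir200c and Mir141 on chromosome 6 (124718322 and 124717914) had a peak in 6 of 6 libraries. Mir200a and Mir200b on chromosome 4 (156054896 and 156055681) had one in 4 of 6, the C313Y and C442G sets, and Mir429 in 2. Both seeds, AAUACUG and AACACUG, were thus present at the cluster whose hairpins had a peak within 1 kb in every library. On chromosome 4 the region 156059308 to 156060087, inside the lncRNA Gm13648, was also called in all 6. It lies beyond the 1 kb read around the hairpins of that cluster, so the cluster on chromosome 4 is not shown to be less open. Mir205, another epithelial microRNA, had a peak in 2 of 6.

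Core regions far from genes included annotated pseudogenes, among them copies of ribosomal RNA and mitochondrial genes. Repeats away from promoters were not examined, and no list of places that give false signal was applied here. Of the regions called in all 6 and over 5 kb from any protein-coding gene, those with the highest lowest percentile were a 1535-bp region on chromosome 15 (75085504 to 75087038, 21.1 kb from Ly6c2) and regions of chromosomes 2 (98666239 to 98667330), 9 (3000003 to 3001526), 14 (19415723 to 19418899), 6 (3200768 to 3201615) and 8 (20424151 to 20424980). The eighth lay 52569 bp from Wnt7b, inside the lncRNA D130051D11Rik (chromosome 15, 85634391 to 85635193, 457 to 803 bp covered in each library). The widest core region of all, 5781 bp, covered the ribosomal RNA pseudogene Rn18s-rs5 and the lncRNA AY036118 on chromosome 17 (39843023 to 39848803). On chromosome 1 the region 24611572 to 24616146 holds the pseudogenes Gm10222 and Gm10925, which are copies of mitochondrial genes. There the C313Y set had peaks over all 4575 bp in both libraries, while the knockout set covered 153 and 127 bp and the C442G set 153 and 161 bp. The region on chromosome 9 showed the same order, with 1501 and 1506 bp against 644 or 645 bp in each of the other 4 libraries. On chromosome 6 the C313Y set covered 846 and 840 bp and the other 4 libraries 178 to 299 bp.

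The 3 wild-type pairs, all of the same genotype, gave lists of very different length. The knockout set had 33933 and 33502 peaks, the C313Y set 71554 and 54613, and the C442G set 91851 and 92618. In means this was 33718 ± 305 (SD, n = 2), 63084 ± 11979 and 92234 ± 542 peaks. The pairs did not overlap, and the C442G set lay furthest from the knockout set. Covered length was 7.03 ± 0.206 Mb, 13.0 ± 1.27 Mb and 23 ± 0.269 Mb (SD, n = 2 each). Over the 15 ways to divide 6 libraries into 3 pairs the exact permutation test gave p = 0.0667 for peaks and for length (adjusted p = 0.0889 over 4 measures by Benjamini-Hochberg). That is the smallest p this design allows, so it cannot pass 0.05. Median peak width, at 146 ± 10.6, 138 ± 19.1 and 173 ± 4.24 bp, gave an exact permutation p = 0.267, with the C313Y and knockout pairs overlapping.

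Longer lists held a smaller share of gene starts but more of them. The share of peaks at gene starts was 33.7% and 34.0% in the knockout set, 19.1% and 24.3% in the C313Y set, and 16.9% and 17.1% in the C442G set (exact permutation p = 0.0667, adjusted p = 0.0889). In numbers these were 11420 and 11402, 13691 and 13286, and 15539 and 15849 peaks. Genes open were 11130 and 11165, 12932 and 12641, and 13391 and 13621. From the shortest list to the longest the number of peaks rose 2.76-fold while open genes rose 1.22-fold. The peaks of each list that lay in core regions numbered 19309 to 19621, a near-equality that the rule sets since every list holds each core region, and made up 58.3% of the shortest list and 21.0% of the longest. With every list cut to its widest 33502 peaks, the difference in gene-start share between the C442G and knockout sets shrank from −16.8 to −1.66 percentage points.

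**Figure D4:**
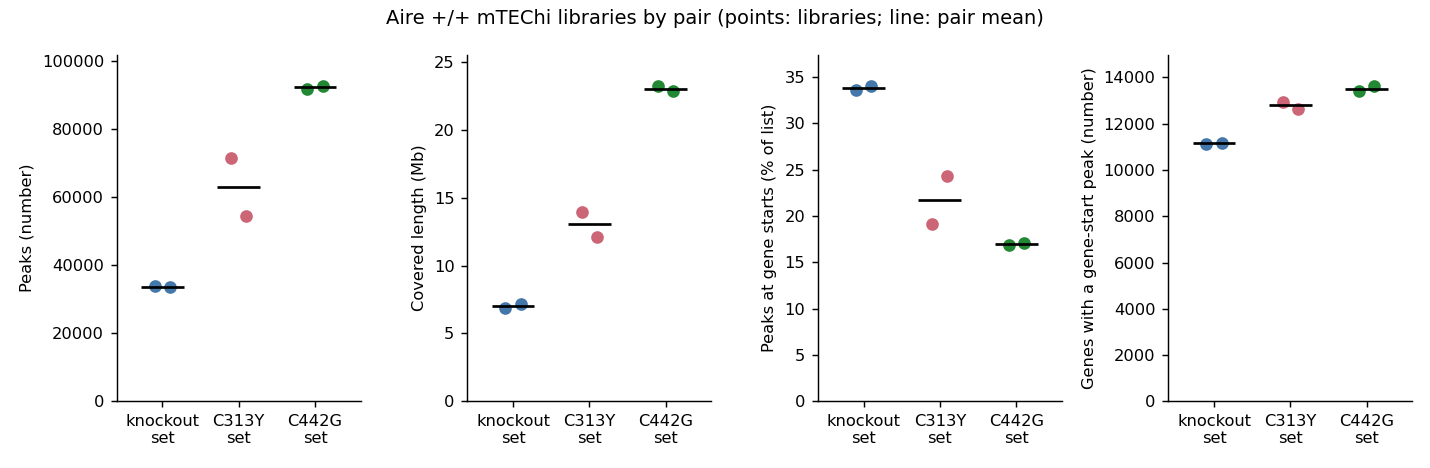
Peaks, covered length (Mb), share of peaks at gene starts (%) and genes with a gene-start peak for the 6 Aire +/+ libraries; points are libraries and lines are pair means, and each axis starts at 0. Peaks run from 33502 to 92618 and open genes from 11130 to 13621, in the order knockout set, C313Y set, C442G set.

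Libraries of a pair had a higher Jaccard index than libraries of different pairs. They were also closer in covered length, and unlike lengths limit how high the index can be. The index therefore does not separate shared positions from list length. The share of a list found in another followed list length. The Jaccard index, the shared length over the joint length, was 0.423 within the knockout set, 0.387 within the C313Y set and 0.518 within the C442G set. Between pairs it ran from 0.240 to 0.367. The mean was 0.443 within and 0.306 between, a difference of 0.137 (one-sided exact permutation p = 0.0667, the smallest possible). As a share of its own peaks, knockout set replicate 1 had 62.9% in its partner and 71.6% to 86.0% in each of the other 4 lists. C313Y set replicate 2 had 67.3% in its partner and 79.9% and 80.6% in the C442G lists. Of the 21108 regions called in both knockout set libraries, 99.2% were called in both C442G libraries and 89.0% in both C313Y libraries. In the other direction, of 69703 regions in both C442G libraries, 30.1% were in both knockout set libraries and 47.5% in both C313Y libraries. Of 36700 regions in both C313Y libraries 90.2% were in both C442G libraries.

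The knockout set had few regions of its own that both of its libraries called. There were 53 regions (0.0353% of all) called in both its libraries and none of the other 4, none of them at a gene start, and 6639 called in 1 of its libraries and nowhere else. The single gene, 0.00484% of genes, was Tafa3, a secreted chemokine-like protein, with peaks of 97 and 74 bp at −log10 q of 1.12 and 1.45, at percentiles 1.37 and 7.23. These peaks lay at different positions and did not overlap. At either annotated end Tafa3 had a peak in 5 libraries, and with a window of 500 bp in 1. The knockout set lacked 6893 regions (4.6%) and 553 genes (2.68%) that all 4 other wild types called. Among the first of these by rank were Arsa, the lysosomal arylsulfatase A (355 to 538 bp in the other 4, at differing positions), Slc25a37, the mitochondrial iron importer mitoferrin (no listed start; 363 and 348 bp at one end of the gene in the C313Y set, 164 and 152 bp at the other end in the C442G set), Psd (778 to 838 bp), Stard13, a RhoGAP (246 to 391 bp), Cfap65, Zfp952 and Gm13275. Psd, which had the widest peaks of these, stood at percentiles 99.1 and 98.4 in the C313Y set. In both knockout set libraries it had no peak within 1 kb of its start. With a window of 2 kb Psd, Arsa and Cfap65 had a peak in all 6 libraries, so these absences hold for the window of 1 kb, and with a window of 500 bp Psd had one in none. With every list cut to its widest 33502 peaks, 1807 regions were called only in this pair and 1040 were missing only from it. With lists of that length taken by −log10 p where there are scores, the counts were 470 and 344. With only replicate 2 or only replicate 1 in the pair, 2671 and 4081 regions were its own and 10373 and 10893 were lacking, and without C313Y set replicate 1 or 2 it lacked 11824 and 12584.

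The C442G set, with the longest lists, had the most of its own and lacked almost nothing. It called 16404 regions (10.9%) and 330 genes (1.6%) that no other wild type called. These were weak peaks: their median percentile was 36.4 and 35.6 of −log10 p, and 31 and 21 of them lay in the top 10% of their list. The first by rank were the predicted genes Gm44064, Gm28802, Gm11100 and Gm5544, then Brinp3 (541 and 507 bp, −log10 q of 9.02 and 9.66), Fgf18, a growth factor (660 and 1235 bp), Slc5a5, the iodide transporter of the thyroid (83 and 81 bp), and Cbarp. These calls depend on the window: at 2 kb Gm44064 and Fgf18 had a peak in 6 libraries, Brinp3 and Slc5a5 in 5 and Gm5544 and Cbarp in 4, and at 500 bp Gm44064, Gm28802, Gm11100, Gm5544 and Slc5a5 had none. Of the 16404 regions, 85.4% and 84.4% were also called in the Aire +/C442G libraries, 46.4% and 55.5% in Aire -/- and 33.9% and 19.7% in Aire +/C313Y. Shares of all regions called in these mutant libraries were not counted, so there is no value to set these against. The pair lacked 10 regions (0.00667%) and 2 genes (0.00968%) that the other 4 had: Dynlt1b, a dynein light chain (208 to 284 bp in the other 4, at −log10 q of 8.88 and 8.98 in the knockout set), and Wscd1. With lists cut to the widest 33502 peaks the pair had 2498 regions of its own and lacked 1242. Without its replicate 1 or 2 its own regions were 34107 and 34140, it lacked 34 without replicate 2, and 26 and 38 without knockout set replicate 1 or 2.

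The C313Y set had a smaller number of regions of its own, of middling width for their lists. It called 2051 regions (1.37%) and 146 genes (0.707%) that no other wild type called. By width the median percentile of these regions was 55.6 and 43.6, and 154 and 89 lay in the top 10%. They lay between genes in 60.0% of cases. Of these regions 71.3% and 60.9% were called in the Aire +/C313Y libraries, against 7.22% and 9.46% in Aire -/- and 15.8% and 14.8% in Aire +/C442G. Here too the share of all regions called in each mutant library was not counted. The pair lacked 622 regions (0.415%) and 28 genes (0.135%) that the other 4 had, of which the first by rank were the olfactory receptor gene Olfr658, the linker histone H1f1, Sult1b1, 5730507C01Rik and Rec8, the meiotic cohesin subunit. Rec8 had −log10 q of 3.53 and 4.2 in the knockout set and 8.8 and 9.69 in the C442G set. With a window of 2 kb H1f1 had a peak in 6 libraries, and at either annotated end Sult1b1 had one in 0. With the widest peaks Olfr658 had one in 2, while 5730507C01Rik and Rec8 stayed at 4 in these settings. With lists cut to the widest 33502 peaks the pair had 1652 regions of its own and lacked 493. Its replicates differed: without replicate 1 or 2 its own regions were 8513 and 23948 and those it lacked 1219 and 1614. Without knockout set replicate 1 or 2 it lacked 2323 and 2084.

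The genes open only in the C313Y wild types mostly had promoters whose sequence recurs at other promoters. A promoter was called repeated when at least 50% of its 269 overlapping words of 32 bases (32-mers) were also found at another position in the promoter table. Of the genes with a listed start among these 146, 81 (65.9%, exact 95% binomial interval 56.8 to 74.2%, counting error only, although copies of a family are not independent) had a repeated promoter. Over all genes with a listed start it was 725 of 16457 (4.41%), for genes open in all 6 0.409%, for those open in none 10.2% and for those open only in the C442G set 4.26%. For 47 of the 81 every 32-mer was repeated. This property was examined after the genes had been seen. The share fell to 43.9% when at least 90% of 32-mers had to be repeated, and was 60.2% with 50-mers. It also fell as more genes entered the class: to 45.5% (96 of 211) without C313Y set replicate 1, to 35.9% (111 of 309) without replicate 2, to 47.2% (85 of 180) without C442G set replicate 2, and to 21.5% (94 of 437) when only peaks with −log10 q of at least 3 were kept in the scored lists.

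Many of these genes belong to families with copies. By rank the first were the neighbours Gm40363 and Gm40364 (1006 and 1000 bp), the histone genes H2ac23 and H2bc23 (883 and 882 bp) and H2ac24 and H4bc24 (911 and 819 bp), and Gm2436 with Srp54b, a copy of the signal recognition particle gene (722 and 836 bp). Gm2436 and Srp54b, with 45.4% and 39.8% of 32-mers repeated, fall below the 50% used here. With a window of 2 kb Gm40363 had a peak in 6 libraries, H2ac24 and H4bc24 in 5, and H2ac23 and H2bc23 in 3. Sprr2a1, Sprr2a2 and Sprr2a3, small proline-rich proteins of the cornified envelope, share their promoters with each other, and Apol9a shares its promoter with Apol9b and Ifit3 with Ifit3b. Zfp966, a zinc finger gene of a cluster on chromosome 2, shares 32-mers with the promoters of 29 other genes. Among chemokines, Ccl21b and Ccl27b were fully repeated, and 55.8% of the 32-mers of Ccl19 recur at Gm12407. Calls at genes with near-identical copies are reported here as uncertain. The Ccl19 promoter, added after its values were seen, shows how long the shared stretch is. Capitals mark the bases within a repeated 32-mer, 181 of the 250 bases before the start.
Ccl19 (chr4:42756366-42756615, minus strand, 2 of 6 libraries): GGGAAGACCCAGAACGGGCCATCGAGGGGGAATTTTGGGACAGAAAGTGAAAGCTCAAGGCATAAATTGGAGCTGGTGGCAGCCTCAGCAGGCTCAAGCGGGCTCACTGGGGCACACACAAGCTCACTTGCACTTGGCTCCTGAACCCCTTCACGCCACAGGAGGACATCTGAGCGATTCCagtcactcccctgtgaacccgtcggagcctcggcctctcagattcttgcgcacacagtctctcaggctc
Within their lists the Ccl19 peaks were at percentiles 32.4 and 7.16 of width. Genes of the same class with no repeated 32-mer included Egr4, Pdpn (podoplanin), Lta (lymphotoxin alpha), Ltbp3, Ptk7 and Prkcb, chosen after their values were seen. With a window of 500 bp Ltbp3 and Lta had a peak in 0 libraries, and with 2 kb Ltbp3 had one in 5. At either annotated end Lta and Egr4 had one in 4. Pdpn had percentiles of 34.4 and 39.1, Lta 45.5 and 38.4, and Egr4 19.5 and 21.7.

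Repeated promoters were open in greater number in every library of the C313Y titles, mutant or not. Of the 725, the knockout set wild types had 48 and 49 open, the C442G set 93 and 86, and the C313Y set 191 and 178. Aire +/C313Y libraries had 181 and 164, Aire +/C442G 103 and 92, and Aire -/- 83 and 92. For the other 15732 promoters no such order appeared: the C313Y wild types had 10174 and 9978 open and the C442G wild types 10566 and 10755. The regions called only in the C313Y set were most crowded in windows of 1 Mb on chromosome 4 (from 42 Mb, 46 regions, where Ccl19, Ccl21b and Ccl27b lie), on chromosome 6 (from 114 Mb, 36 regions) and on chromosomes 14, 17 and 2. Slc25a37 and Dynlt1b, named above as missing from another pair, lie in the windows on chromosomes 14 (from 69 Mb) and 17 (from 6 Mb). Gm13275 lies on chromosome 4 between Gm13276 and Gm13279, whose promoters were fully repeated. The part of copies in the calls at these genes was not tested. The 4 lists with C313Y titles are also the only ones deposited as positions without scores. How reads with several matching positions were treated is not given in the sources used here, and its part in these calls was not tested.

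**Figure D5:**
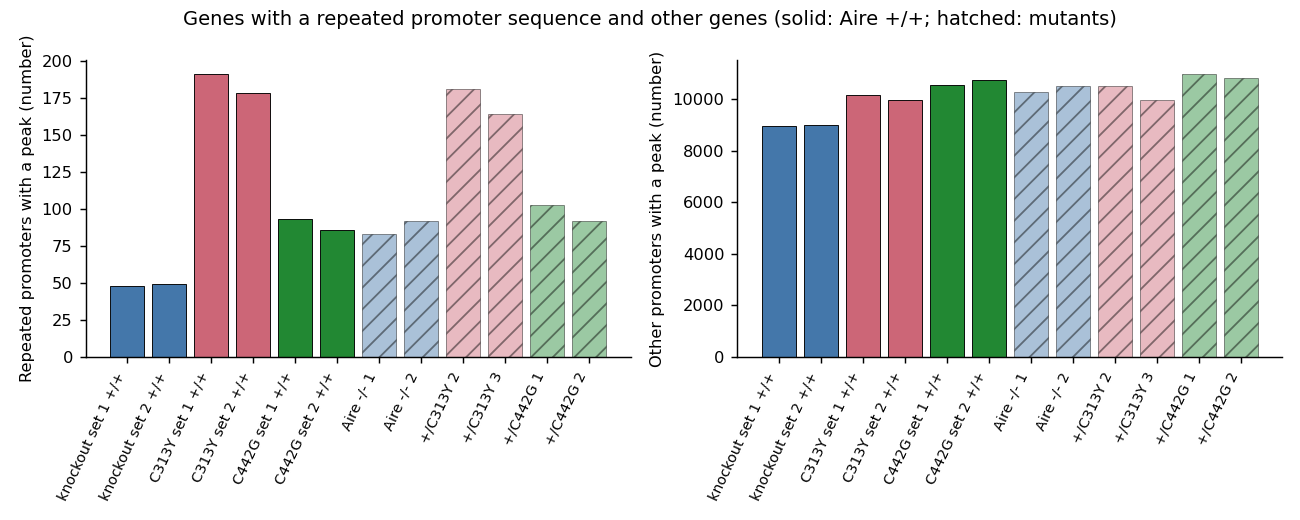
Genes with a gene-start peak in each of the 12 libraries among the 725 genes with a repeated promoter (left) and the 15732 others (right); solid bars are Aire +/+ libraries, hatched bars are mutants, and colours are the sets. The 4 libraries of the C313Y titles have 164 to 191 repeated promoters open and the other 8 have 48 to 103.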

How the data were processed

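Peak lists of 6 Aire +/+ ATAC-seq libraries of sorted mTEChi were used, with those of the 6 mutants for a check of where wild-type regions recur. Thymi were dissociated with enzymes and mTEChi sorted first, per the labels' protocols. Coordinates are those of mm10, and cutadapt, Bowtie2, Picard and MACS2 were used, all per the submitters' processing notes. Tool versions and the treatment of reads with several matching positions: not given in the sources used here. Each library has its own list. The lists have no header line. In the column order of the broad-peak format the authors' 4 scored wild-type lists hold, for each peak, a deposited score, a fold over the caller's background (a ratio), −log10 p and −log10 q. The deposited score is 10 times −log10 q. The 2 wild-type lists of the C313Y set give positions only, so their peaks were ranked by width and their threshold is unknown. No counts were used, and depth is unknown.

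Peaks on chromosomes 1 to 19 were merged where they overlapped by at least 1 bp. Gene starts came from the RefSeq promoter table for GRCm38.p6, with a window of 1 kb, and either annotated end was used for genes with no listed start, which include every gene of chromosome 18. Peak number, covered length, median width (as log2 values) and the percent of peaks at gene starts were tested by an exact permutation test over the 15 divisions into pairs, with Benjamini-Hochberg adjustment. Regions and genes of 1 pair were described with no test. Of the gene lists, 21 were by symbol and 16 by name pattern. The members, lists and tests were chosen with earlier results of these data known.

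Genes named were Aire, the 20 always-open genes with the highest lowest percentile, the 15 with the most core regions, the leading regions over 5 kb from any gene, the leading 8 genes of each pair (those called only there and those missing only there) and up to 4 members of each list open in all 6 and in none, with others named by their number. Some genes that this rule gives are not reported here. Some genes, chosen after their values were seen, are named to fill out a list or a family. Alternatives were equal list lengths, a stricter −log10 q of 3, peaks of at least 200 bp, 100 bp of overlap, windows of 500 bp, other gene windows and ends, chromosome X and each library left out. The counting was tested on simulated lists. Python 3.11.15, pandas 2.3.3, numpy 2.4.6 and scipy 1.17.1 were used.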

Additional observations from a re-analysis of the deposited data

Results flagged for a closer look

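Chromosomes X and Y were left out of the comparisons. Peaks on chromosome Y numbered 200 in C313Y set replicate 1, which stood apart from the other 5 wild types, and 45 in C313Y set replicate 2. Knockout set replicate 2 had 9, C442G set replicates 1 and 2 had 4 each, and knockout set replicate 1 had 2. A fixed floor of 3 peaks was used to flag these counts, and the first 5 were above it. The floor takes no account of list length, so it shows no difference between libraries. The gap between 200 and the next value was 0.783 of the whole range, above Dixon's critical value for 6 libraries. Of 9 measures examined over the 6 libraries this was the only one to stand apart in that way. The critical value allows about 1 in 20 for each measure, and 9 measures were examined, so this gap alone decides nothing. The same library had the highest share of its peaks on chromosome X, 3.26%, against 1.6% to 2.25% in the other 5. The cause was not tested.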

How the results depend on the processing

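The list-level tests cannot pass 0.05 in this design, so no setting could change their call. Direction was the same under every alternative run: for peaks per library the log2 ratio of the C442G to the knockout set was between 1.44 and 1.74, for covered length between 0.62 and 1.92, for median width between 0.0569 and 1.42, for the share at gene starts between −1.66 and −30.3 percentage points, and for the Jaccard index (within minus between) between 0.0919 and 0.194. Equal list length gives no value for peaks per library. The replicate numbers did not pair the libraries (correlations of deviations 0.00225, 0.000131 and 0.00388), and with a replicate block the exact permutation p of each of the 5 results was 0.167, the values being 1.45, 1.71, 0.251, −16.8 and 0.137. The 18743 regions open in all 6 became 12104 with the widest 33502 peaks of each list, 10646 at −log10 q of at least 3 and 7200 with peaks of at least 200 bp, and 18751 to 22743 when a library was left out. Genes open in all 6 (10202) became 6341 with peaks of at least 200 bp and 8320 when only listed starts were used, and 10203 to 10702 without a library. Of the genes open in all 6, 86.1% were open in all 6 with the widest peaks and 75.0% at −log10 q of at least 3.

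Counts of 1 pair depend on list length and threshold. The 53 regions called only in the knockout set became 1807 with the widest and 470 with the strongest peaks, 11 at −log10 q of at least 3, 11 with peaks of at least 200 bp, 17 with 100 bp of overlap and 101 in windows of 500 bp (54 to 4081 without a library). The 6893 it lacked became 1040, 344, 11157 and 2356 under the first 4 of these settings (7442 to 12584 without a library). For the C313Y set, 2051 regions of its own became 4714 at −log10 q of at least 3, where only the scored lists lose peaks, and 627 with peaks of at least 200 bp (2067 to 23948 without a library). The 622 it lacked became 1998 with the strongest peaks, 83 at −log10 q of at least 3, 238 with peaks of at least 200 bp, 374 with 100 bp of overlap and 991 in windows of 500 bp (629 to 2323 without a library). For the C442G set, 16404 became 2498 with the widest peaks, 3067 with the strongest, 5372 at −log10 q of at least 3, 7902 with peaks of at least 200 bp and 25109 in windows of 500 bp (17867 to 34140 without a library). The 10 it lacked became 1242, 769, 3 with peaks of at least 200 bp, 4 with 100 bp of overlap and 21 in windows of 500 bp (11 to 38 without a library). Apart from the settings whose own construction removes peaks or libraries, the cause was not tested.

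The share of repeated promoters among genes open only in the C313Y set, 65.9%, was 45.1% (78 of 173) with the widest peaks, 28% (80 of 286) with the strongest, 21.5% at −log10 q of at least 3, 54.3% (51 of 94) with peaks of at least 200 bp and 43.9% when at least 90% of 32-mers had to be repeated (35.9 to 64.1% without a library). These alternatives were chosen after seeing the data, and each value is above the 4.41% of all genes. Among 167 genes named, the number of libraries with a peak stayed within 1.5 times for 138 with the widest peaks, 158 at −log10 q of at least 3, 148 and 150 with gene windows of 500 and 2000 bp and 150 with either annotated end. Of 79 named genes open in all 6, Aire among them, 58 were so at −log10 q of at least 3, and Aire was then open in 4 libraries. Depth being unknown, an absent peak is no measure of closed chromatin.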
